A study of Mus musculus with 4 samples.

Results

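The genes described here are the prostaglandin-endoperoxide synthases Ptgs1 and Ptgs2 (the cyclooxygenases), the prostaglandin E synthases Ptges, Ptges2 and Ptges3, and the prostaglandin E2 receptors Ptger1, Ptger2, Ptger3 and Ptger4 (EP1 to EP4). They were taken by gene symbol, and all 9 were found, each as 1 row, among 21722 genes used. In build mm9 the cyclooxygenase genes lie at chr2:36085946-36107789 (Ptgs1) and chr1:151947254-151955142 (Ptgs2). The synthase genes lie at chr2:30744991-30758817 (Ptges), chr2:32251410-32258260 (Ptges2) and chr10:127496038-127514310 (Ptges3). The receptor genes lie at chr8:86190539-86194002 (Ptger1), chr14:45607786-45623495 (Ptger2), chr3:157229856-157307722 (Ptger3) and chr15:5183404-5193831 (Ptger4). The RNA was taken from primary hippocampal cultures made from CD1 pups (an outbred stock) on the day of birth, and 1 polyA library was made for each of 4 conditions. The 4 libraries were Kdm6b shRNA with Bic/4AP, Kdm6b shRNA untreated, vector with Bic/4AP and vector untreated. All cultures received a lentivirus on day 4 in vitro and were harvested on day 11. The virus carried 1 short hairpin RNA against Kdm6b, which encodes a demethylase of histone H3 lysine 27, or was the empty pLKO.1 vector. Bic/4AP is 3 h with bicuculline at 50 µM (the label writes 50µm), a GABA-A receptor blocker, and 4-aminopyridine at 2.5 mM, a potassium channel blocker, which together drive synaptic firing. Whether a library came from 1 culture or a pool is not given in the labels.

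Prostaglandin E2 is made in 3 steps. Phospholipases A2 free arachidonic acid from membranes, a cyclooxygenase turns it into the unstable intermediate PGH2, and a prostaglandin E synthase converts PGH2 to PGE2. The receptors then split the signal: EP1 raises intracellular calcium, EP2 and EP4 raise cAMP through Gs, and EP3 mainly lowers cAMP through Gi. In rodent forebrain Ptgs2 is a neuronal immediate-early gene that synaptic activity and seizures induce, whereas Ptgs1 is largely a constitutive gene of microglia and other non-neuronal cells.

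Levels are FPKM, which are divided by transcript length and can be compared between genes. Each is printed with the authors' lower and upper bound, which describe how well that one library measured the gene and say nothing about how replicate cultures would vary. With 1 library per group no test was possible and no p-value is given. Differences were taken on a log2(FPKM + 1) scale, which shrinks those of weakly expressed genes, and a gene is called 2-fold apart when that difference is at least 1 either way. A gene was compared when at least 1 of the libraries compared reached an FPKM of 1. The depth of the libraries relative to vector untreated was 0.994 for shRNA with Bic/4AP, 1.04 for shRNA untreated and 0.932 for vector with Bic/4AP. Kdm6b stood at 4.83 and 2.73 FPKM in the shRNA libraries with Bic/4AP and untreated, against 13.1 and 6.74 FPKM in the matching vector libraries. The pan-neuronal marker Snap25 ranged from 383 to 452 FPKM and the astrocyte marker Gfap from 1510 to 1770 FPKM over the 4 libraries, so the cultures labelled as neurons also held astrocyte RNA.

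Ptgs2, the inducible cyclooxygenase, was the prostaglandin gene that differed most with firing. Its level was 67.7 FPKM (bounds 66.5 to 68.9) in shRNA with Bic/4AP, 0.823 (0.693 to 0.952) in shRNA untreated, 55.5 (54.4 to 56.6) in vector with Bic/4AP and 1.63 (1.44 to 1.81) in vector untreated. Both Bic/4AP libraries were high and both untreated libraries were low, with no overlap. The bounds of the untreated values imply 161 fragments in the shRNA library and 305 in the vector library. The ratio of Bic/4AP to untreated was 82.3 in shRNA cultures and 34.1 in vector cultures. On the log2(FPKM + 1) scale the differences were 5.24 with the hairpin (bounds allow 5.11 to 5.37), rank 5 from the top among 13320 genes, and 4.43 in vector cultures (4.30 to 4.56), rank 8 among 13217 genes. With Bic/4AP, Ptgs2 was more abundant than 93.6% of all genes in the shRNA library and 92.1% in the vector library, against 38.3% and 43.3% in the corresponding untreated libraries.

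**Figure D1:**
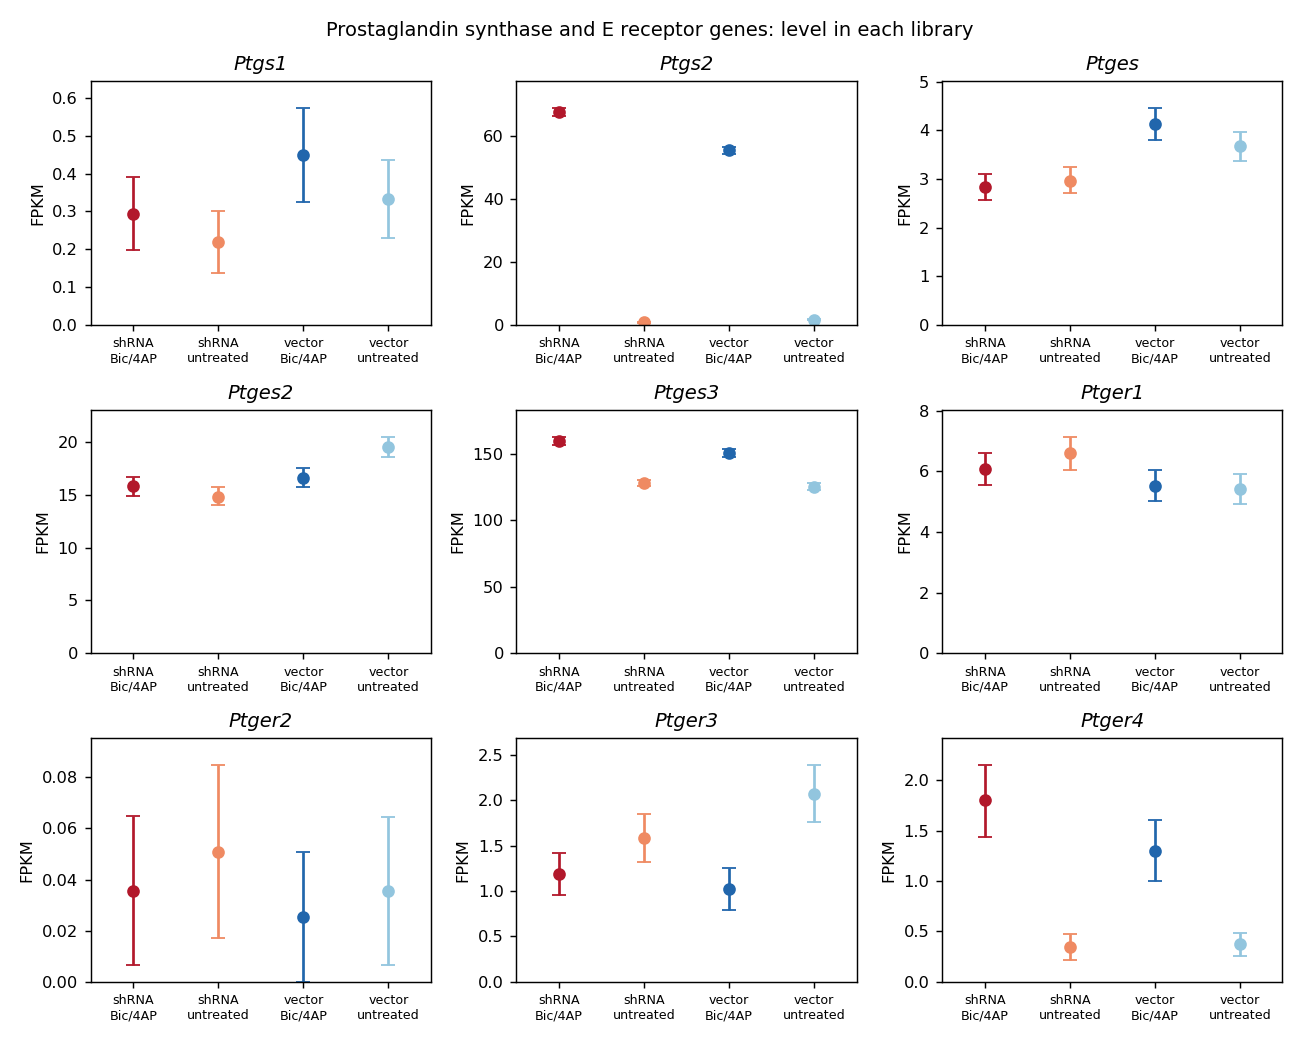
Level of each gene in FPKM (linear axes from 0, different in each panel) in the 4 libraries, with 1 point per library and bars for the authors' bounds. Ptgs2 and Ptger4 are high in both Bic/4AP libraries, Ptges3 is moderately higher there, and Ptger2 stays below 0.1 FPKM in all 4.

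The start of Ptgs2 is shown because this gene carries the largest response, beside that of its constitutive relative Ptgs1 and of Ptger4, the receptor gene that was also higher with Bic/4AP. Each sequence runs 5′ to 3′ over 250 bases before and 50 bases after the RefSeq start, in build GRCm38.p6. Ptgs2 lies at chr1:150099781-150100080 on the plus strand, Ptgs1 at chr2:36230176-36230475 on the plus strand and Ptger4 at chr15:5244138-5244437 on the minus strand. Capitals mark matches, on either strand, to the motifs searched.
Ptgs2: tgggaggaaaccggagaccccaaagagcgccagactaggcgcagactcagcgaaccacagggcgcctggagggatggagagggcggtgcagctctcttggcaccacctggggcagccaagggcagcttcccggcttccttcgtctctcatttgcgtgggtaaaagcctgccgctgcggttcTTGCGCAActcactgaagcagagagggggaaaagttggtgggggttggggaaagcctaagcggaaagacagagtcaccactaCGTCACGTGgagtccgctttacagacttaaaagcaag
Ptgs1: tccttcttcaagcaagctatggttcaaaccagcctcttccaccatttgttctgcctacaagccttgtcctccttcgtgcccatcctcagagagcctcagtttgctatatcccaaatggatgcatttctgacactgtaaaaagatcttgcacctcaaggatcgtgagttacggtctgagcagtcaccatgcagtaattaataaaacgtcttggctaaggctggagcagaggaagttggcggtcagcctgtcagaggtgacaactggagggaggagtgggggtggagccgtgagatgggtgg
Ptger4: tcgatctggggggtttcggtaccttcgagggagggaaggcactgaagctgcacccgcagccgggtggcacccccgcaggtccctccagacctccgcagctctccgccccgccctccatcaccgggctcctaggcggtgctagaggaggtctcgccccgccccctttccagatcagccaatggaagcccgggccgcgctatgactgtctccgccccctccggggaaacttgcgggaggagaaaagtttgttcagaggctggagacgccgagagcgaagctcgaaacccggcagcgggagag

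In Ptgs2 the capitals are the C/EBP palindrome TTGCGCAA, at bases -69 to -62 counted from the RefSeq start (its first base is 1), and a stretch at bases 14 to 22. In that stretch the short CRE, TGACG read on the other strand, overlaps the E-box CACGTG. C/EBP factors, CREB and USF are proteins that bind such motifs. The palindrome occurs in 0.183% of 32851 RefSeq promoters of this length, the short CRE in 20.8% and CACGTG in 7.15%. Among the 8 prostaglandin genes with an entry (Ptger1 had none), the palindrome was found in Ptgs2 alone, the short CRE also in Ptges3 and CACGTG also in Ptges2. The Ptgs1 and Ptger4 windows held none of the marked motifs. The other motifs marked on a match were the full CRE TGACGTCA (in 1.79% of promoters), TTNNGNAAT for C/EBP (11.5%), TGAGTCA for AP-1 (5.20%), TATAAA (13.6%), the NF-kB consensus (8.46%) and the serum response CArG box (1.63%), none of which was in the Ptgs2 window. The loose E-box CANNTG, in 72.3% of promoters, was counted but not marked. These matches describe letters in a window and are not binding data. Where transcription began in these cultures was not examined, so the positions hold for the RefSeq start only. Sequence outside the window was not searched, so a motif absent here may lie nearby.

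The other end of the Ptgs2 transcript was examined for ATTTA, the core of the AU-rich elements through which unstable mRNAs are recognised. The annotated 3′ UTR (GENCODE M21) held 14 copies in 2445 bases, and 3.33% of 11642 genes that had an annotated 3′ UTR and reached an FPKM of 1 in some library had as many or more. Ptger2 had 6 copies in 1825 bases and Ptger4 5 in 1233 bases. Ptges2, Ptges3 and Ptger3 had 4 each, in 3444, 1186 and 1933 bases, while Ptgs1, Ptges and Ptger1 had 0. Of the same 11642 genes, 19.3% had at least as many copies as Ptger2, 24.5% as Ptger4 and 31.6% as those with 4. The densest window of 30 bases in Ptgs2, on chromosome 1 in build GRCm38, is shown with ATTTA in capitals. It covers bases 12 to 41 of the 3′ UTR and holds 4 copies, 3 of them overlapping.
Ptgs2 AU-rich stretch: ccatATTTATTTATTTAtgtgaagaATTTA

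With the hairpin, Ptgs2 was lower at rest and slightly higher during firing. The untreated level with the hairpin was 50.6% of the vector level (bounds allow a ratio of 0.382 to 0.661), a difference of -0.53. With Bic/4AP the ratio of shRNA to vector was 1.22 (1.17 to 1.27), a difference of 0.28. The authors' bounds did not overlap in either comparison, but this held for 55.2% of all genes compared between shRNA and vector untreated and for 49.7% with Bic/4AP. Neither difference reached 2-fold. The response with the hairpin exceeded that in vector cultures by 0.81 (0.55 to 1.07), rank 29 from the top among 13458 genes. As a ratio of ratios this was 2.41 (1.78 to 3.32), and the untreated difference was the larger of its parts. The same difference was 1.19 on a scale of log2(FPKM + 0.1) and 0.45 on a scale of log2(FPKM + 5).

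Neuron markers were also lower in the untreated shRNA library. Excitatory neuron markers had a median difference of -0.27, with 0 of 8 above 0, and their summed level was 475 FPKM in shRNA untreated, against 660 in vector untreated. With Bic/4AP the sums were 412 in shRNA and 475 in vector, and the median difference was -0.00. The lowest difference was that of Slc17a7, a vesicular glutamate transporter, at 185 FPKM in shRNA untreated and 307 in vector untreated, and the highest that of Prox1 (-0.08). Inhibitory neuron markers summed to 798 and 530 FPKM in shRNA with Bic/4AP and untreated, against 1070 FPKM in each vector library, and the neuropeptide gene Sst made up much of each sum (413 and 225 FPKM in shRNA, 542 and 539 in vector). Their median difference between shRNA and vector was -0.39 with Bic/4AP, with 6 of 9 below 0, and -0.52 untreated, with 8 of 9 below 0. With Bic/4AP, Vip (0.69), Pvalb (0.25) and Calb2 (0.22) lay above 0. In RNA of a whole culture, fewer cells of a type and less RNA per cell cannot be told apart, and the part of these markers in the Ptgs2 difference was not tested.

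Ptgs1, the constitutive cyclooxygenase, was near the lower limit of measurement and made up little of the cyclooxygenase mRNA. It stood at 0.294 FPKM (0.197 to 0.391) in shRNA with Bic/4AP, 0.220 (0.138 to 0.301) in shRNA untreated, 0.450 (0.326 to 0.573) in vector with Bic/4AP and 0.332 (0.230 to 0.435) in vector untreated. The bounds imply 37, 29, 53 and 42 fragments in that order, and no library reached the FPKM of 1 needed for a comparison. Ptgs2 accounted for 99.6% of the summed FPKM of both cyclooxygenases in shRNA with Bic/4AP and 78.9% in shRNA untreated. In vector cultures the share was 99.2% with Bic/4AP and 83.1% untreated. Per unit length, Ptgs2 therefore exceeded Ptgs1 in all 4 libraries, also at rest.

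Ptgs1 was lower in the shRNA libraries than in the vector libraries by similar ratios, 0.654 with Bic/4AP and 0.661 untreated, but the bounds allow 0.345 to 1.20 and 0.318 to 1.31. Most microglia markers compared were also lower in shRNA. Their median difference was -0.77 with Bic/4AP, with 6 of 8 below 0, and -0.80 untreated, with 7 of 8 below 0. Aif1 was nearly level, at 0.04 and -0.08. The 11 markers, none of them at 0 in any library, summed to 30.4 FPKM in shRNA with Bic/4AP and 25.9 in shRNA untreated, against 56.6 and 56.3 FPKM in the corresponding vector libraries. Tyrobp, a signalling adaptor of these cells, had the lowest differences (-1.41 with Bic/4AP and -1.46 untreated), while P2ry12 had the highest (0.10 and 0.24). Tmem119, a defining microglia marker, was between 0.0226 and 0.135 FPKM. The part of microglia RNA in the Ptgs1 values was not tested.

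**Figure D2:**
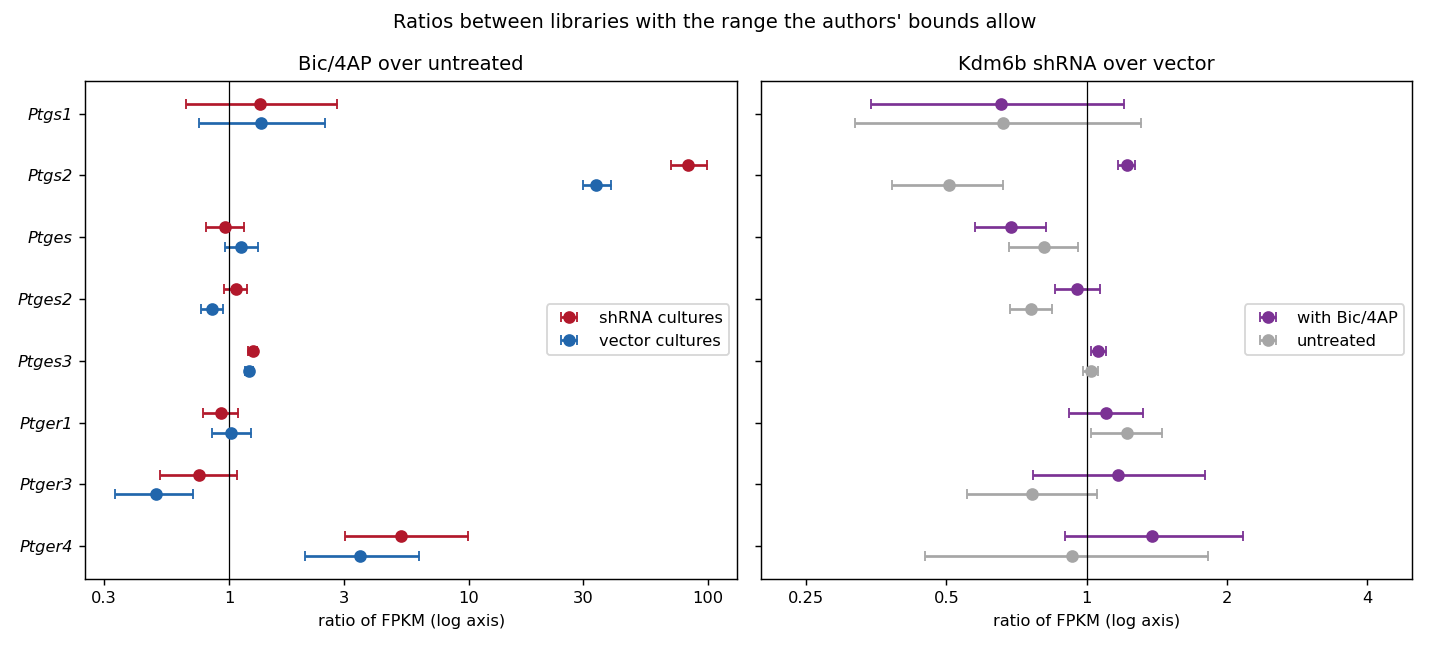
Ratios of FPKM on log axes, with bars for the range that the authors' bounds allow: Bic/4AP over untreated (left, shRNA and vector cultures) and Kdm6b shRNA over vector (right, with Bic/4AP and untreated). Ptgs2 stands far to the right of the other genes in the left panel (82.3 and 34.1), and Ptgs2 untreated lies at 0.506 in the right panel. Ptger2 is left out because it rests on 4 to 9 fragments.

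The terminal synthases differed far less than Ptgs2. Ptges3, a cytosolic synthase that is also the Hsp90 co-chaperone p23, was the most abundant gene of the pathway. It stood at 160 FPKM (157 to 163) in shRNA with Bic/4AP, 128 (126 to 130) in shRNA untreated, 151 (148 to 154) in vector with Bic/4AP and 125 (123 to 128) in vector untreated. Both Bic/4AP libraries lay above both untreated ones, by a ratio of 1.25 (1.20 to 1.30) with the hairpin and 1.21 (1.16 to 1.25) in vector cultures. The hairpin made little difference to Ptges3, with ratios of 1.06 with Bic/4AP and 1.02 untreated.

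Ptges encodes the inducible, membrane-bound synthase that is often coupled to Ptgs2 in inflamed tissue. It stood at 2.84 FPKM (2.57 to 3.10) in shRNA with Bic/4AP, 2.97 (2.71 to 3.24) in shRNA untreated, 4.13 (3.80 to 4.46) in vector with Bic/4AP and 3.67 (3.37 to 3.97) in vector untreated. The groups separated by virus rather than by firing, with both shRNA libraries below both vector libraries. The ratio of shRNA to vector was 0.687 (0.577 to 0.816) with Bic/4AP and 0.809 (0.682 to 0.960) untreated. The ratio of Bic/4AP to untreated was 0.955 (0.796 to 1.15) with the hairpin and 1.12 (0.957 to 1.32) in vector cultures, so that the bounds overlapped in both. The small difference with the hairpin, -0.05, took the other sign under median-ratio scaling, which divides each library by its median ratio to the mean of all.

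Ptges2, a constitutive membrane-associated synthase, stood at 15.8 FPKM (14.9 to 16.7) in shRNA with Bic/4AP, 14.8 (14.0 to 15.7) in shRNA untreated, 16.6 (15.7 to 17.5) in vector with Bic/4AP and 19.5 (18.6 to 20.5) in vector untreated. The vector untreated library was the highest and its bounds lay clear of the other 3. Its ratio of Bic/4AP to untreated was 1.07 (0.954 to 1.19) with the hairpin and 0.849 (0.764 to 0.943) in vector cultures, a difference between the responses of 0.31 (0.02 to 0.60). The ratio of shRNA to vector was 0.954 (0.854 to 1.07) with Bic/4AP and 0.760 (0.684 to 0.844) untreated. Ptges3 made up between 84.4% and 89.5% of the summed FPKM of the 3 synthases, and Ptges between 1.59% and 2.47%.

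Among the receptors, Ptger4 was the one that was higher with Bic/4AP. It stood at 1.80 FPKM (1.44 to 2.15) in shRNA with Bic/4AP, 0.344 (0.217 to 0.471) in shRNA untreated, 1.30 (0.997 to 1.60) in vector with Bic/4AP and 0.370 (0.259 to 0.481) in vector untreated. Both Bic/4AP libraries lay above both untreated libraries. The ratio of Bic/4AP to untreated was 5.22 (3.05 to 9.94) with the hairpin, a difference of 1.06 that passed the 2-fold limit, and 3.51 (2.07 to 6.18) in vector cultures, a difference of 0.75 that did not. The difference between these responses was 0.31, and the bounds allow -0.32 to 0.94, so the call in one background and not in the other does not separate them. The ratio of shRNA to vector was 1.38 (0.897 to 2.16) with Bic/4AP, and untreated neither library reached an FPKM of 1. The Ptger4 call was lost with a pseudocount of 5 or a minimum FPKM of 5.

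Ptger3, the receptor that mainly acts through Gi, had the opposite direction. It stood at 1.19 FPKM (0.954 to 1.42) in shRNA with Bic/4AP, 1.59 (1.32 to 1.85) in shRNA untreated, 1.02 (0.795 to 1.25) in vector with Bic/4AP and 2.07 (1.76 to 2.39) in vector untreated, from an implied 102, 143, 82 and 179 fragments. In vector cultures the Bic/4AP level was 49.2% of the untreated level (ratio 0.333 to 0.706), a difference of -0.61, and the bounds were apart. With the hairpin the ratio was 0.749 (0.515 to 1.08) and the bounds overlapped. The difference between the responses was 0.37 (-0.25 to 0.98). The bounds of shRNA and vector overlapped in both states, with ratios of 1.17 (0.766 to 1.79) with Bic/4AP and 0.765 (0.554 to 1.05) untreated.

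Ptger1, the calcium-coupled receptor, was the most abundant receptor gene in every library. It stood at 6.08 FPKM (5.55 to 6.62) in shRNA with Bic/4AP, 6.60 (6.06 to 7.15) in shRNA untreated, 5.53 (5.01 to 6.06) in vector with Bic/4AP and 5.42 (4.92 to 5.93) in vector untreated. The bounds of Bic/4AP and untreated overlapped in both backgrounds, with ratios of 0.921 with the hairpin and 1.02 in vector cultures. The ratio of shRNA to vector was 1.10 (0.916 to 1.32) with Bic/4AP and 1.22 (1.02 to 1.45) untreated.

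Ptger2, the other Gs-coupled receptor, was barely detected. It stood at 0.0356 FPKM (0.00653 to 0.0647) in shRNA with Bic/4AP, 0.0509 (0.0170 to 0.0848) in shRNA untreated, 0.0253 (0 to 0.0506) in vector with Bic/4AP and 0.0354 (0.00650 to 0.0643) in vector untreated. The implied fragments were 6, 9, 4 and 6, so no difference was detectable at this depth. Ptger4 accordingly made up 98.1% of the summed FPKM of the Gs-coupled receptors in both Bic/4AP libraries, 87.1% in shRNA untreated and 91.3% in vector untreated. Within the summed FPKM of all 4 receptors, the share of Ptger4 was 19.7% in shRNA with Bic/4AP and 4.00% in shRNA untreated, and 16.5% and 4.68% in the corresponding vector libraries. The share of Ptger3 ran the other way, at 13.1% and 18.5% in the shRNA libraries and 12.9% and 26.3% in the vector libraries.

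In order of level, the untreated libraries ran Ptges3, Ptges2, Ptger1, Ptges, Ptger3, Ptgs2, Ptger4, Ptgs1 and Ptger2. Ptger4 and Ptgs1 overlapped in their bounds in both untreated libraries, and Ptger3 and Ptgs2 overlapped in vector untreated. With Bic/4AP, Ptgs2 moved to the place after Ptges3 and Ptger4 to the place before Ptger3, in both backgrounds. The bounds of Ptger4 and Ptger3 overlapped in vector with Bic/4AP.

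Counted over the pathway, 2 of 7 genes compared were 2-fold higher with Bic/4AP in shRNA cultures (Ptgs2 and Ptger4), against 2.08% of all genes compared. In the same cultures 0 of 7 were 2-fold lower, against 0.158%. Both called genes were below an FPKM of 1 in shRNA untreated (0.823 and 0.344) and passed the filter only through the Bic/4AP library. They could thus enter this count only by being higher, so the count partly reflects the filter. In vector cultures 1 of 7 was 2-fold higher (Ptgs2), against 2.22%, and 0 were 2-fold lower, against 0.272%. The authors' bounds were apart for 3 of 7 genes in shRNA cultures, against 54.6% of all genes, and for 5 of 7 in vector cultures, against 58.7%, so non-overlap of the bounds did not set these genes apart. The median difference was 0.09 with the hairpin and 0.13 in vector cultures, where all genes had medians of -0.08 and -0.07. Between shRNA and vector with Bic/4AP, 0 of 7 genes were 2-fold higher or lower, against 0.189% and 0.536% of all genes. Between shRNA and vector untreated, 0 of 6 were, against 0.414% and 0.669%. For the difference of the responses 0 of 7 were, against 0.111% and 0.126%. The median difference between shRNA and vector was 0.12 with Bic/4AP (all genes 0.03) and -0.24 untreated (all genes 0.05). The median difference of the responses was 0.31, against -0.02 over all genes.

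**Figure D3:**
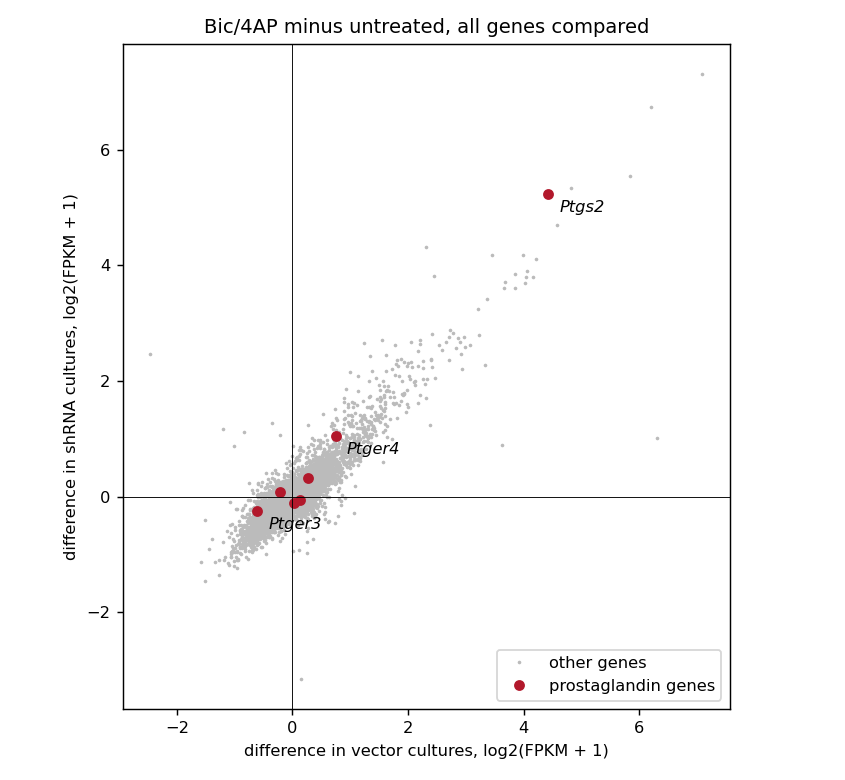
Bic/4AP minus untreated in log2(FPKM + 1) for every gene compared in both backgrounds, vector cultures on the x axis and shRNA cultures on the y axis, with the prostaglandin genes as large red points. Ptgs2 lies at 4.43 and 5.24 among the largest responses, Ptger4 at 0.75 and 1.06 and Ptger3 at -0.61 and -0.24.

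The genes with profiles most like Ptgs2 over the 4 libraries were immediate-early genes. Likeness was the Euclidean distance between log2(FPKM + 1) profiles, each centred on its own mean, over 13457 genes. The nearest was Arc, an activity-regulated synaptic gene, at a distance of 0.28, followed by the transcription factor genes Nr4a1 (0.44), Egr1 (0.82), Egr4 (0.88) and Fos (1.05). Arc stood at 185 FPKM in shRNA with Bic/4AP, 3.61 in shRNA untreated, 165 in vector with Bic/4AP and 4.89 in vector untreated. The difference of the responses was 0.52 for Arc and 0.12 for Nr4a1, beside 0.81 for Ptgs2. Fos and Egr4 had the other sign, at -0.28 and -0.11. Ptger4, whose differences are small, had closer neighbours: Ddx10 and Lbh at 0.05, B630005N14Rik at 0.07, Kpna1 at 0.09 and the kinase gene Sgk1 at 0.10.

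**Figure D4:**
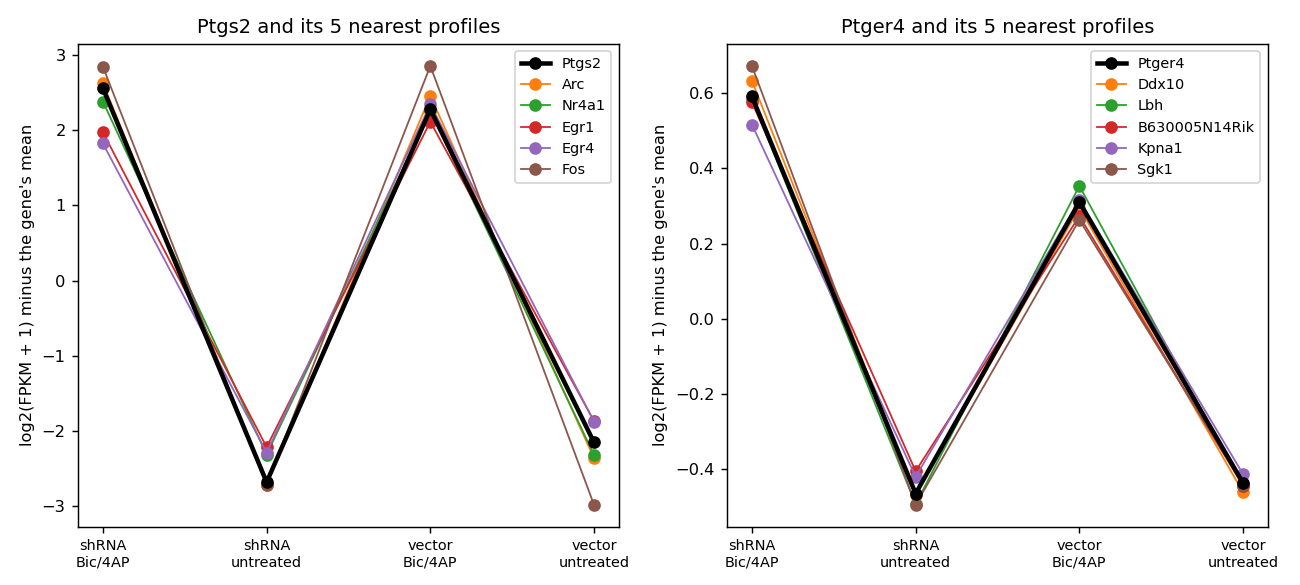
Profiles of Ptgs2 (left) and Ptger4 (right), in black, with the 5 nearest genes of each, as log2(FPKM + 1) minus the gene's mean over the 4 libraries. All profiles in both panels are high in the Bic/4AP libraries and low in the untreated ones, and Arc lies closest to Ptgs2.

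Around the Ptgs2 locus, 8 other genes lay within 500 kb. Of these, 3 reached an FPKM of 1 and none was 2-fold apart in any comparison. Pla2g4a, which encodes the cytosolic phospholipase A2 that feeds cyclooxygenases with arachidonic acid, lies 139 kb away. Its level was 2.48 FPKM in shRNA with Bic/4AP, 2.20 in shRNA untreated, 2.59 in vector with Bic/4AP and 2.20 in vector untreated, with differences of 0.12 and 0.16 for Bic/4AP. The nuclear pore gene Tpr ranged from 17.4 to 21.8 FPKM and BC003331 from 16.1 to 21.8. Another of the 8, 7530420F21Rik, is named Ptgs2os in RefSeq, where it runs on the opposite strand and starts within the promoter window above. It was at 0.0237 FPKM in shRNA with Bic/4AP and 0.0252 in vector with Bic/4AP, and was listed at 0 in both untreated libraries. Since the strand setting of the counting is not given in the sources used here, reads from overlapping genes cannot be told apart. Among neighbours of the other prostaglandin genes, Dnajb1, a heat-shock co-chaperone gene 54.7 kb from Ptger1, was higher with Bic/4AP by 1.65 in shRNA and 1.87 in vector cultures. Tac2, a tachykinin gene 327 kb from Ptges3, stood at 1.26 FPKM in shRNA untreated and 4.27 in vector untreated, a difference of -1.22.

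In the lists for arachidonate release, other prostanoid synthases, prostaglandin inactivation and transport, and other prostanoid receptors, no gene was 2-fold apart in any comparison. Of 18 phospholipase A2 and related genes, 8 were compared in shRNA and 7 in vector cultures, with median Bic/4AP differences of -0.09 and -0.06, the last of which took the other sign under median-ratio scaling. The largest members were Pla2g5 (0.15 and 0.19) and, on the lower side, Pla2g4e (-0.43 and -0.44). Genes for the synthases of other prostanoids had medians of 0.09 over 4 genes in shRNA and 0.06 over 3 genes in vector cultures. In that list Akr1b3, which encodes a prostaglandin F synthase, stood at 4.85 and 4.90 FPKM in shRNA with Bic/4AP and untreated, against 8.22 and 6.74 FPKM in vector, with bounds apart in the Bic/4AP libraries alone. Cbr1, a carbonyl reductase gene, had the lowest Bic/4AP differences, -0.12 and -0.24. Hpgds, the hematopoietic prostaglandin D synthase, was at 1.11 and 0.777 FPKM in shRNA, against 0.593 and 0.435 FPKM in vector.

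Prostaglandin inactivation and transport genes had medians of 0.00 in shRNA and 0.12 in vector cultures over 7 genes. The highest were Zadh2 (0.08) in shRNA and Ptgr1 (0.26) in vector cultures, both prostaglandin reductase genes. The lowest was Hpgd, the dehydrogenase that begins prostaglandin breakdown, at 1.21 FPKM in shRNA with Bic/4AP, 1.73 in shRNA untreated, 1.41 in vector with Bic/4AP and 2.60 in vector untreated. Its Bic/4AP differences were -0.30 and -0.57. Receptors for other prostanoids were nearly silent: besides Ptgfrn, an immunoglobulin-family protein that associates with the prostaglandin F receptor (14.8 to 17.4 FPKM), Ptgfr alone reached an FPKM of 1, at 1.16 and 1.12 in shRNA with Bic/4AP and untreated, against 0.863 and 0.800 in vector.

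Genes for factors described at the Ptgs2 promoter held most of the 2-fold differences around this pathway. This list holds immediate-early genes such as Fos and was chosen with earlier results of these data known, so its counts partly reflect that choice. None of 20 compared was 2-fold lower with Bic/4AP in shRNA or vector cultures, against 0.158% and 0.272% of all genes. In shRNA cultures 7 of 20 were 2-fold higher (median 0.61), against 2.08% of all genes, and in vector cultures 7 of 20 (median 0.56), against 2.22%. In both backgrounds these included the AP-1 genes Fosb (6.74 and 6.20), Fos (5.55 and 5.83), Junb (3.79 and 4.04) and Jun (1.77 and 2.21) and the NF-kB subunit genes Nfkb1 (1.02 and 1.30) and Nfkb2 (1.07 and 1.16). The remaining call was Cebpb in shRNA cultures (1.43, against 0.53 in vector) and Nfatc2 in vector cultures (1.14, and just under the limit in shRNA cultures). Cebpb, which encodes a transcription factor of the C/EBP family, stood at 18.0 FPKM (16.9 to 19.0) in shRNA with Bic/4AP, 6.03 (5.41 to 6.64) in shRNA untreated, 15.2 (14.2 to 16.2) in vector with Bic/4AP and 10.2 (9.41 to 11.0) in vector untreated. Like Ptgs2, it was lowest in shRNA untreated and highest in shRNA with Bic/4AP. The median difference of the responses over the list was -0.10, with 13 of 20 below 0. Usf1 had the lowest Bic/4AP differences of the list, -0.52 and -0.51, and those of Creb1 were -0.45 and -0.33.

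Of 11 genes for proteins described on AU-rich Ptgs2 mRNA, Zfp36 (tristetraprolin, which promotes decay of such mRNAs) was 2-fold higher with Bic/4AP, by 1.34 in shRNA and 1.68 in vector cultures. Its level was 11.1 FPKM in shRNA with Bic/4AP, 3.79 in shRNA untreated, 13.5 in vector with Bic/4AP and 3.53 in vector untreated. The medians of the list were -0.07 and -0.11, the first of which took the other sign under median-ratio scaling. Elavl1, which encodes the stabilising protein HuR, was between 11.2 and 13.4 FPKM in all 4 libraries.

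**Figure D5:**
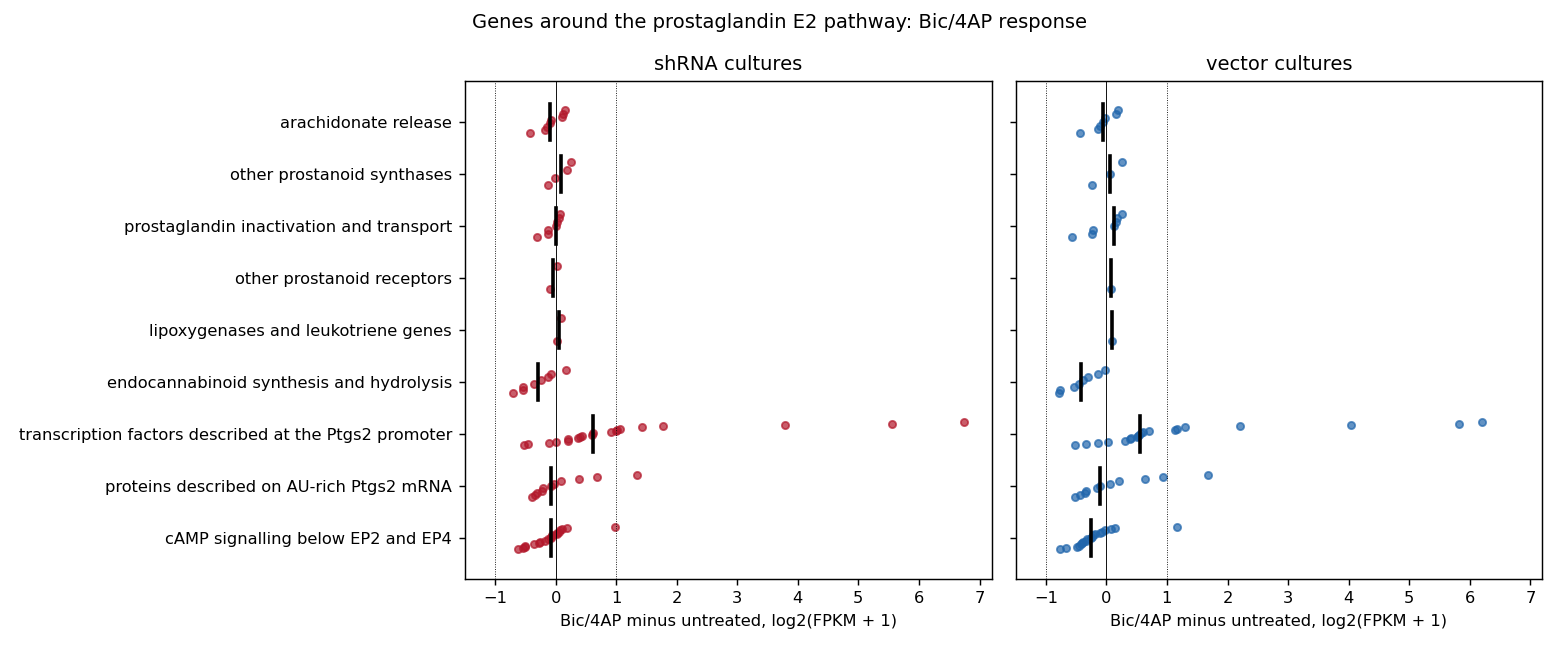
Bic/4AP minus untreated in log2(FPKM + 1) for every compared gene of 9 lists around the pathway, in shRNA cultures (left) and vector cultures (right). Points are genes, black bars are list medians and dotted lines mark a difference of 1 either way, which is passed in both panels by genes of the transcription factor list and by Zfp36.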

How the data were processed

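PolyA RNA libraries (Illumina TruSeq) were sequenced, 1 for each of 4 groups. Per the submitters' processing notes the tools were CASAVA 1.8, TopHat2 2.0.8b and Cufflinks 2.0.2 with mouse build mm9, with no roles stated. The deposited tables hold FPKM with lower and upper bounds per the file headers, in 22878 rows. FPKM of rows sharing a symbol were added up. Genes with a failed estimate in any library and small RNA genes were not used, and starts are printed counted from 1. Bounds lie 2 Poisson SDs from the value for many genes, so the implied number of fragments was printed where it came out whole within 0.05 and under 1000. Relative depth came from 1773 such genes. Ratio ranges set each bound against the opposite bound. Promoters are from RefSeq (GRCm38.p6), 3′ UTRs from GENCODE M21. The genes and lists were chosen with earlier results of these data known. Genes were named by rule: all members, Kdm6b, list genes 2-fold apart or at a list's extremes, the 5 nearest profiles, and neighbours. Other genes were named after their values were seen. Python 3.11.15, pandas 2.3.3 and NumPy 2.4.6 were used, and comparison functions were tested on simulated data. Alternatives changed the pseudocount, filter, scaling, row choice or call rule. 1 result is not reported here.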

Additional observations from a re-analysis of the deposited data

Results flagged for a closer look

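The effect of the hairpin on Ptgs2 had opposite directions in the untreated and the stimulated cultures, each beyond the authors' bounds. Between shRNA and vector the bounds were apart for 55.2% of all genes untreated and for 49.7% with Bic/4AP. Non-overlap alone therefore does not set a gene apart. The difference of shRNA minus vector was -0.53 untreated and 0.28 with Bic/4AP. The Bic/4AP response was thus 0.81 larger with the hairpin. This difference was not tested, since each group has 1 library.

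Cebpb, from the list of factors described at the Ptgs2 promoter, showed the same shape, at -0.68 untreated and 0.23 with Bic/4AP, a response 0.90 larger with the hairpin. That was the highest of 20 genes compared in the list. The list as a whole had a median difference of the responses of -0.10, with 13 of 20 below 0 and Jun lowest (-0.44). Of the pathway lists, only genes 2-fold apart in some comparison were searched for this shape, and Cebpb qualified through its response in shRNA cultures (1.43). The Cebpb difference was not tested either, and any relation between the genes was not tested.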

How the results depend on the processing

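Of 45 counts of prostaglandin genes 2-fold apart under the alternatives, 41 stayed within 1.5 times of the reported count. With a pseudocount of 0.1, 2 genes (Ptger4 and Ptgs2) passed in vector cultures and 1 gene (Ptgs2) for the difference of the responses. In shRNA cultures 1 gene (Ptgs2) passed with a pseudocount of 5 and 1 with a minimum FPKM of 5, which removes Ptger4. Of 257 recomputed differences of single genes, 240 stayed within the range of the authors' bounds, 17 moved outside it and 2 near 0 changed sign (Ptges and Ptges3). The 34 values under the other row choice, 34 with no filter and 19 with a minimum FPKM of 5 could not move. Each prostaglandin gene has 1 row, and a filter only decides which differences are shown. The moves came from pseudocounts of 0.1 (7 of 34) and 5 (8 of 34) and from median-ratio scaling (2 of 34). The row choice could not change the counts of prostaglandin genes either. The Ptgs2 response was between 3.64 and 6.20 in shRNA and between 3.19 and 5.01 in vector cultures. List medians changed sign in 15 of 360 recomputed values, and counts over lists moved in 7 of 405. With a pseudocount of 5 the promoter factors 2-fold higher in vector cultures numbered 4 against 7 reported, and Zfp36 lost its call in shRNA cultures. Under median-ratio scaling Zfp36l2 joined Zfp36 in vector cultures. Pde4b passed in shRNA cultures under 3 alternatives, and Pla2g2c passed between shRNA and vector with Bic/4AP at a pseudocount of 0.1. No paired analysis was possible because each group has 1 library and the labels carry no replicate numbers. Depth limits Ptgs1, Ptger2 and the untreated values of Ptger4.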

Other observations

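Genes for endocannabinoid synthesis, hydrolysis and receptors had mostly negative Bic/4AP differences, and none was 2-fold apart. Of 8 compared, 7 lay below 0 in shRNA (median -0.29) and 8 in vector cultures (median -0.42), where all genes had medians of -0.08 and -0.07. Excitatory neuron markers had medians of -0.07 in shRNA (5 of 8 below 0) and -0.38 in vector cultures (7 of 8), and pan-neuronal markers -0.11 (3 of 5) and -0.26 (4 of 5). The part of these markers in the endocannabinoid values was not tested. Dagla, which makes 2-arachidonoylglycerol, stood at 6.41 FPKM in shRNA with Bic/4AP, 11.0 in shRNA untreated, 7.35 in vector with Bic/4AP and 13.1 in vector untreated. Cnr1, the cannabinoid receptor gene, stood at 25.7, 37.5, 29.0 and 50.7 FPKM in the same order. Mgll, whose product releases arachidonic acid from 2-arachidonoylglycerol, was between 40.8 and 46.6 FPKM in all 4 libraries. Its Bic/4AP differences, 0.17 in shRNA and -0.02 in vector cultures, were the highest of the list.

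Among 19 genes of cAMP signalling below EP2 and EP4, Pde4b, a cAMP phosphodiesterase gene, was the highest, at 0.98 in shRNA and 1.16 in vector cultures, past the 2-fold limit in vector cultures alone. It stood at 38.0 FPKM in shRNA with Bic/4AP, 18.8 in shRNA untreated, 37.6 in vector with Bic/4AP and 16.3 in vector untreated. The list medians were -0.08 and -0.25, and the first took the other sign under median-ratio scaling. Adcy9, an adenylyl cyclase gene, was the lowest, at -0.62 and -0.76. Lipoxygenase and leukotriene genes were mostly silent: 2 of 14, Lta4h and Aloxe3, were compared in shRNA cultures, with differences of 0.03 and 0.09, and Lta4h alone in vector cultures (0.09).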
